A study of Homo sapiens with 18 samples.

Results

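Notch signalling passes a message between neighbouring cells, and 10 genes that encode its ligands, receptors and effectors were followed here in lung carcinoma cells given back p53. They are the ligands JAG1, JAG2, DLL1 and DLL4, the receptors NOTCH1, NOTCH2 and NOTCH3, the receptor-modifying enzyme LFNG, and the target repressors HES1 and HEY1. Each was found by its symbol among the probe sets that carry exactly 1 gene symbol, and 10 of 10 were found among 18417 genes. Every one had a single such probe set. NOTCH2 has a second probe set that it shares with its near copies NOTCH2NLA and NOTCH2NLB, which was not used, so its value is the less certain one. No filter on dim genes was applied, and 0 of the 10 lay under percentile 30 of mean level in either set. That mean covers all arrays of a set, those with p53 included, so it does not show how dim a gene was without p53.

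RNA came from NCI-H1299, a non-small cell lung carcinoma line that carries no p53, transiently transfected with pIRES-2EGFP plasmids, sorted for green fluorescence and lysed 40 h after transfection. The first set of 9 Affymetrix arrays held ΔNp53:WTp53, which pairs an N-terminally shortened p53 with the wild-type protein, WTp53 alone, and empty vector, each in experiments 0, 4 and 5. The second set of 9, described by its submitters as controls, held tethered WTp53, WTp53 and empty vector in experiments d, e and f. There were 3 arrays to a group, and every cell analysed had taken up a plasmid with the fluorescent marker. The tethered arrays were grouped by their titles, although their transfection field names ΔNp53:WTp53. The series states that experiments 0, 4 and 5 were separate transfections. For d, e and f it does not, so p-values of the second set measure a spread that may be technical.

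A Notch receptor is cut first by furin on its way to the surface, then, once a Jagged or Delta ligand on a neighbouring cell pulls on it, by an ADAM protease and by γ-secretase. The freed intracellular part enters the nucleus, joins the DNA-binding protein RBPJ and a Mastermind co-activator, and switches on HES and HEY genes, whose products are repressors. Fringe enzymes such as LFNG add sugars to the receptor and so bias which ligand it answers. In lung and other epithelia the pathway is known for its part in cell fate choices between neighbours.

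The promoters of HES1, JAG2 and NOTCH1 are shown because HES1 is the classical direct target of the pathway, whereas JAG2 and NOTCH1 had the widest differences from vector among the ligands and among the receptors. RefSeq (GRCh38.p14) windows of 250 bases before to 50 bases after the start were given for 8 of the 10 genes, not for DLL1 or HEY1. LFNG had 2 windows, which made 9 in all. The 250 bases before the start are at chr3:194135898-194136147 (plus strand) for HES1, at chr14:105168777-105169026 (minus strand) for JAG2 and at chr9:136546049-136546298 (minus strand) for NOTCH1. Capitals mark the RBPJ core TGGGAA, searched like the other motifs on both strands, and no match overlapped one of another motif.
HES1: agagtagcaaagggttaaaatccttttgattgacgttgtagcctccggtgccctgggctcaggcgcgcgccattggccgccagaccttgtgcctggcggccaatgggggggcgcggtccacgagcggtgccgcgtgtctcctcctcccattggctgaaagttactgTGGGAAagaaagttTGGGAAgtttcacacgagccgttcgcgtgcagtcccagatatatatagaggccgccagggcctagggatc
JAG2: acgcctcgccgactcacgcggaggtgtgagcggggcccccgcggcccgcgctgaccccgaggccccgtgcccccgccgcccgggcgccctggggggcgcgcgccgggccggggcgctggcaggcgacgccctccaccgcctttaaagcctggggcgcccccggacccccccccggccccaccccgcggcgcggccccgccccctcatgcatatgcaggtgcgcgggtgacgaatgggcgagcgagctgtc
NOTCH1: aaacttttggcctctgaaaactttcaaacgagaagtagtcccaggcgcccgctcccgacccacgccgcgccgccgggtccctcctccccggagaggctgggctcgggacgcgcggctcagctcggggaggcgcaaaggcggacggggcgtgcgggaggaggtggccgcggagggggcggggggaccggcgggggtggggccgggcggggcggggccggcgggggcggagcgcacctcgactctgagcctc
HES1 held the core at 84 and at 70 bases before its start. Of the 9 windows, 3 held it, that of HES1 and both of LFNG, against 24% of 35116 promoter windows of the same 300 bases. A p53 decamer, the repeated unit of the p53 response element, was matched in 1 of the 9, a window of LFNG, at 218 bases before the start, against 6.63% of all windows. The N-box CACNAG, a sequence that HES proteins bind, occurred in 6 of the 9, against 38%. These matches describe letters in a window and say nothing of binding.

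Values are log2 intensities, differences are log2 differences ± the standard error of a limma fit to the 9 arrays of a set, and a gene rose or fell where the Benjamini-Hochberg adjusted p over 18417 genes was under 0.05. The sets were normalized apart, with array medians from 4.89 to 4.97 in the first and from 7.01 to 7.07 in the second, so levels are compared only within a set and never between genes. The median standard deviation of a gene was 0.151 in ΔNp53:WTp53, 0.109 in WTp53 and 0.104 in vector arrays of the first set, and 0.0693 in tethered WTp53, 0.0493 in WTp53 and 0.0557 in vector arrays of the second. The p53 response was present in both sets: CDKN1A, which encodes the cell cycle inhibitor p21, rose against vector by 3.69 ± 0.26 with ΔNp53:WTp53 and by 4.62 ± 0.26 with WTp53, and by 3.22 ± 0.06 with tethered WTp53 and 3.13 ± 0.06 with WTp53 of the second set. In sorted cells analysed in bulk, a change in the number of cells that express a gene and a change per cell cannot be told apart.

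The comparison of ΔNp53:WTp53 with empty vector (first set) addresses what the shortened and full-length proteins do together in cells without p53. Of the 10 genes 8 rose and 0 fell, where 15.7% of all genes rose and 20.3% fell (36.1% called in all). The arrays of the 2 groups did not overlap for those 8, HES1 only by less than the printed rounding, against 45.6% of all genes. The median difference was 0.99 over the 10 genes and 0.01 over all genes. WTp53 against the same vector arrays raised 5 and lowered 0 of the 10, where 15.2% of all genes rose and 16.6% fell (31.8% called). Those 5 were JAG1, JAG2, DLL1, NOTCH1 and NOTCH3, and the median difference was 0.62, against 0.02 over all genes. Groups did not overlap for 7 of the 10, against 48.8% of all genes. These comparisons share their vector arrays.

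Among the ligands the Jagged genes rose the most. JAG2, a ligand of Notch receptors in epithelia, stood at 9.24, 10.38 and 10.25 in ΔNp53:WTp53 arrays, at 8.81, 9.59 and 9.67 in WTp53 arrays and at 5.87, 5.52 and 5.93 in vector arrays (experiments 0, 4 and 5). Every p53 array lay above every vector array, and experiment 0 was the lowest of its group with either construct. The difference from vector was 4.18 ± 0.31 with ΔNp53:WTp53, an 18.1-fold rise (limma adjusted p = 2.07e-05), and 3.58 ± 0.31 with WTp53, a 12-fold rise (limma adjusted p = 4.52e-05). JAG1, the ligand altered in Alagille syndrome, stood at 6.32, 6.95 and 6.84 in ΔNp53:WTp53 arrays, at 6.09, 6.21 and 6.32 in WTp53 arrays and at 4.82, 4.6 and 4.39 in vector arrays. Both p53 groups lay clear of the vector, and they overlapped each other at 6.32. JAG1 rose 4.29-fold with ΔNp53:WTp53 (2.10 ± 0.17, limma adjusted p = 2.77e-05) and 3.05-fold with WTp53 (1.61 ± 0.17, limma adjusted p = 1.13e-04).

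**Figure D1:**
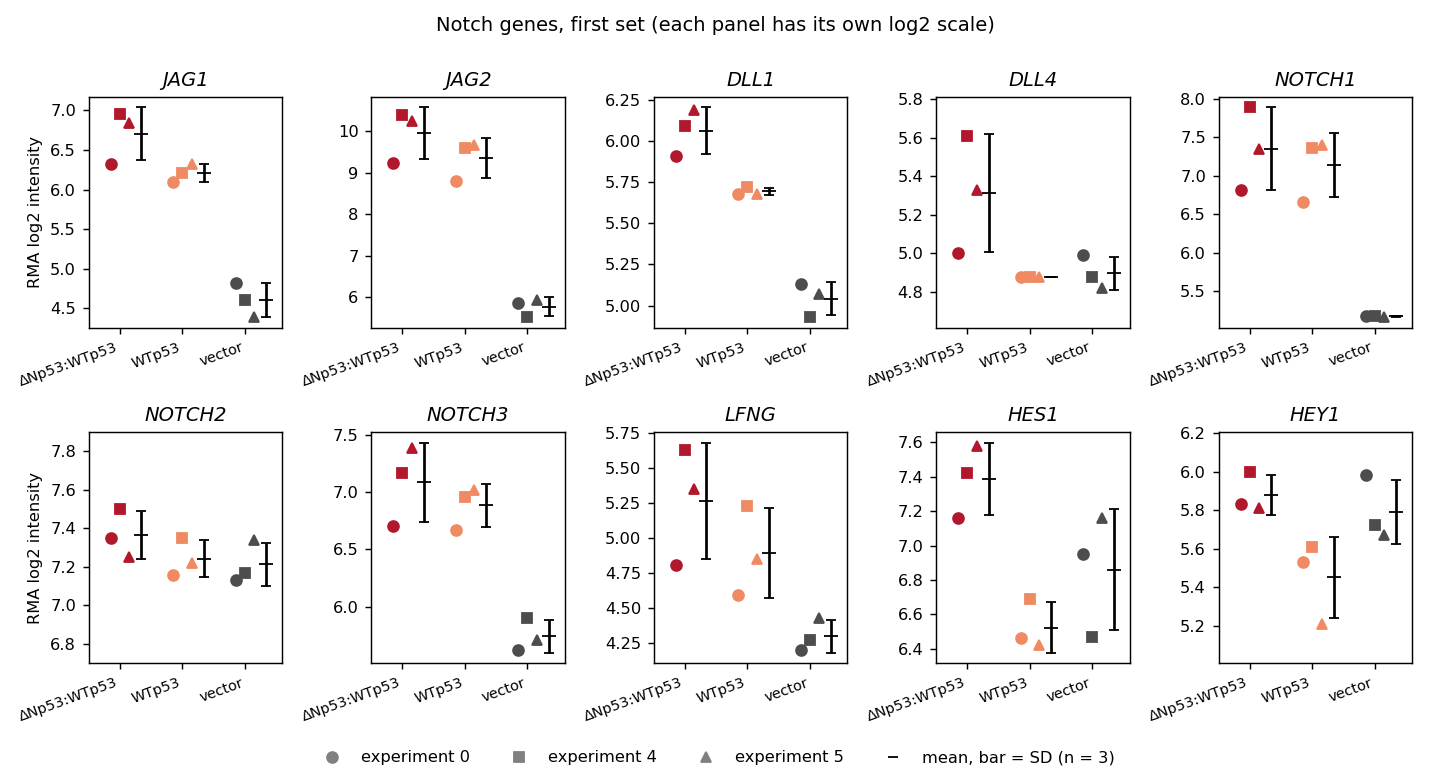
RMA log2 intensity of the 10 Notch genes in the first set, 1 panel per gene with its own scale. Symbols are arrays by experiment, from left ΔNp53:WTp53, WTp53 and empty vector, and bars are the mean with its SD (n = 3). JAG1, JAG2, DLL1, NOTCH1 and NOTCH3 lie above vector with both constructs, whereas HES1 is high with ΔNp53:WTp53 and low with WTp53.

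The Delta ligands moved less. DLL1, a ligand of the Delta family, stood at 5.91, 6.09 and 6.19 in ΔNp53:WTp53 arrays, at 5.68, 5.72 and 5.68 in WTp53 arrays and at 5.13, 4.93 and 5.07 in vector arrays. The 3 groups did not overlap, in that order from high to low. DLL1 rose by 1.02 ± 0.09 with ΔNp53:WTp53 (limma adjusted p = 5.74e-05) and by 0.65 ± 0.09 with WTp53 (limma adjusted p = 6.76e-04). DLL4, the ligand best known from sprouting blood vessels, stood at 5.0, 5.61 and 5.33 in ΔNp53:WTp53 arrays, at 4.88 in each WTp53 array and at 4.99, 4.88 and 4.82 in vector arrays. Experiment 0 with ΔNp53:WTp53 was only just above the highest vector array. DLL4 rose with ΔNp53:WTp53 (0.42 ± 0.13, limma adjusted p = 0.0346) and differed by −0.02 ± 0.13 with WTp53 (limma adjusted p = 0.947, 95% interval −0.32 to 0.28). The DLL4 rise was lost without experiment 4 or 5 of ΔNp53:WTp53 or without experiment 4 or 5 of the vector, and over all 6 single arrays left out its adjusted p ran from 0.00119 to 0.12.

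Among the receptors, NOTCH1 and NOTCH3 rose and NOTCH2 did not pass the test. NOTCH1, the receptor best known from T cell leukaemia, stood at 6.81, 7.89 and 7.35 in ΔNp53:WTp53 arrays, at 6.66, 7.36 and 7.4 in WTp53 arrays and at 5.17, 5.18 and 5.16 in vector arrays. The vector arrays were nearly equal, and the 2 p53 groups overlapped each other. NOTCH1 rose 4.53-fold with ΔNp53:WTp53 (2.18 ± 0.26, limma adjusted p = 2.19e-04) and 3.91-fold with WTp53 (1.97 ± 0.26, limma adjusted p = 3.98e-04). NOTCH3, the receptor altered in the small-vessel disease CADASIL, stood at 6.7, 7.17 and 7.38 in ΔNp53:WTp53 arrays, at 6.67, 6.96 and 7.02 in WTp53 arrays and at 5.62, 5.9 and 5.71 in vector arrays. The p53 groups overlapped each other and lay above the vector. It rose by 1.34 ± 0.17 (limma adjusted p = 2.91e-04) and by 1.14 ± 0.17 (limma adjusted p = 7.34e-04) with ΔNp53:WTp53 and with WTp53. NOTCH2 ranged from 7.25 to 7.5 in ΔNp53:WTp53 arrays, from 7.16 to 7.35 in WTp53 arrays and from 7.13 to 7.34 in vector arrays, with 95% intervals of −0.07 to 0.37 for ΔNp53:WTp53 and −0.19 to 0.25 for WTp53 against vector.

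LFNG, the Fringe enzyme, stood at 4.81, 5.63 and 5.35 in ΔNp53:WTp53 arrays, at 4.59, 5.23 and 4.85 in WTp53 arrays and at 4.2, 4.27 and 4.43 in vector arrays. All p53 arrays were above all vector arrays, and experiment 4 was the highest with either construct. It rose with ΔNp53:WTp53 (0.96 ± 0.21, limma adjusted p = 0.00523), a call lost without experiment 4 or without experiment 5 as a whole (highest adjusted p 0.0854). With WTp53 the difference of 0.59 ± 0.21 missed the threshold (limma adjusted p = 0.0573). It passed in 6 of 16 alternative analyses, among them the experiment as a block (adjusted p = 0.00975) and without experiment 0 of WTp53 (adjusted p = 0.0327).

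The effectors HES1 and HEY1 did not rise with both constructs as JAG1, JAG2 and DLL1 did. HES1, the repressor that Notch switches on in many tissues, stood at 7.16, 7.42 and 7.58 in ΔNp53:WTp53 arrays, at 6.46, 6.69 and 6.42 in WTp53 arrays and at 6.95, 6.47 and 7.16 in vector arrays. The ΔNp53:WTp53 arrays were above the WTp53 arrays without overlap. Vector experiment 4 lay within the WTp53 range. Vector experiment 5 equalled the lowest ΔNp53:WTp53 array as printed, and those groups were apart only in unrounded values. Against vector HES1 rose by 0.53 ± 0.17 with ΔNp53:WTp53 (limma adjusted p = 0.0381). That call was lost without experiment 4 or 5 of ΔNp53:WTp53 or without experiment 0 or 4 of the vector (adjusted p from 0.0165 to 0.136 over 6 single arrays left out). With WTp53 the HES1 difference was −0.33 ± 0.17 (limma adjusted p = 0.183), and without vector experiment 4 it was −0.53 and passed (adjusted p = 0.0304).

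HEY1, a related repressor, ranged from 5.81 to 6.0 in ΔNp53:WTp53 arrays, from 5.21 to 5.61 in WTp53 arrays and from 5.67 to 5.98 in vector arrays. The WTp53 arrays were below all others. HEY1 differed from vector by 0.09 ± 0.13 with ΔNp53:WTp53 (limma adjusted p = 0.645) and by −0.34 ± 0.13 with WTp53 (limma adjusted p = 0.0686). The WTp53 difference passed in 4 of 16 alternative analyses. These were the experiment as a block (adjusted p = 0.0381), a spread from all 18 arrays, arrays centred on their medians and quantile normalization.

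ΔNp53:WTp53 was also compared with WTp53 of the first set. Whether a difference came from the shortened partner or from how the construct is built was not tested. Among the 10 genes 1 rose, HES1, and 0 fell, where 1.56% of all genes rose and 2.44% were called (449 genes, and 806 with the experiment as a block). The differences were above 0 for 10 of 10, with a median of 0.40 against −0.01 over all genes, and 4 of 10 had groups without overlap, against 20.6% of all genes. HES1 was 1.82-fold higher (0.86 ± 0.17, limma adjusted p = 0.0339). The size of the HES1 difference lay between 0.76 and 0.97 whichever of the 6 arrays was left out, but the call was lost without experiment 4 or 5 of ΔNp53:WTp53 and without experiment 0, 4 or 5 of WTp53 (highest adjusted p 0.14). DLL1 (0.37 ± 0.09, limma adjusted p = 0.0761), DLL4 (0.43 ± 0.13, limma adjusted p = 0.126) and HEY1 (0.43 ± 0.13, limma adjusted p = 0.111) had groups without overlap and missed the threshold. JAG1 (0.49 ± 0.17, limma adjusted p = 0.158) and JAG2 (0.60 ± 0.31, limma adjusted p = 0.35) had groups that overlapped. For NOTCH1 the 95% interval of the difference was −0.37 to 0.79, for NOTCH3 −0.18 to 0.58, for NOTCH2 −0.10 to 0.34 and for LFNG −0.09 to 0.84. Without experiment 0 of ΔNp53:WTp53, 5 of the 10 rose, JAG1, JAG2, DLL1 and DLL4 beside HES1. The same 5 rose without experiment 0 as a whole, where 2461 of 18417 genes were called in place of 449. With the spread taken from all 18 arrays 5 rose too, JAG1, DLL1, DLL4 and HEY1 beside HES1, where 2693 of 18417 genes were called.

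**Figure D2:**
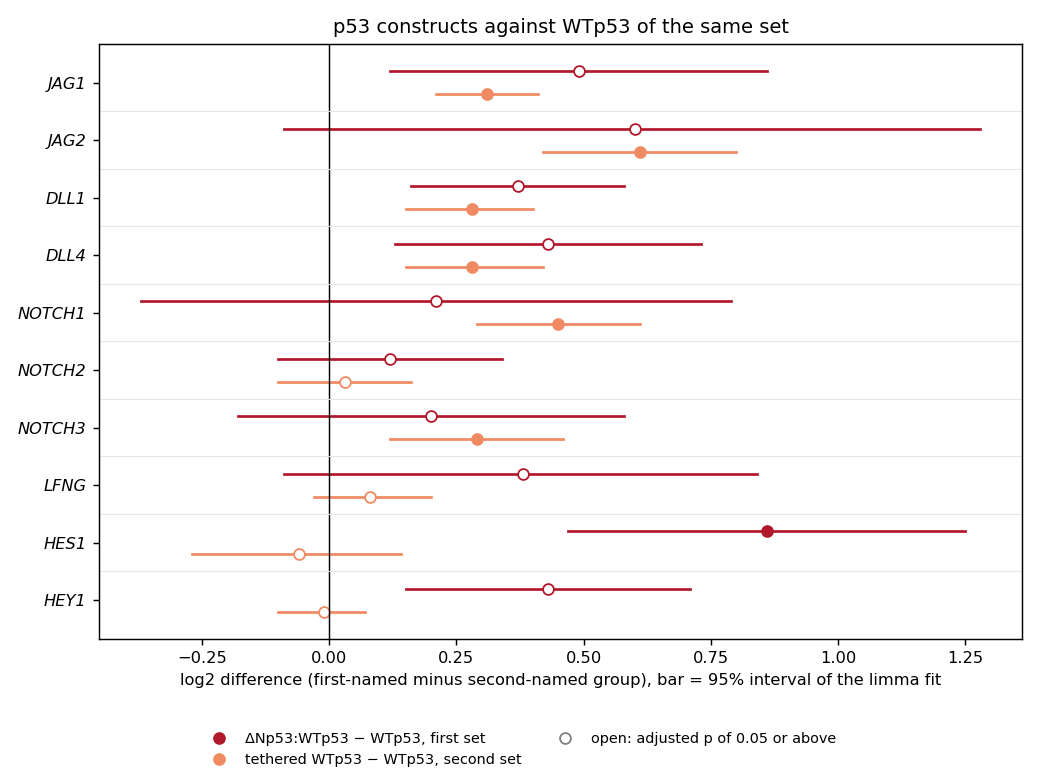
Log2 difference from WTp53 of the same set for the 10 Notch genes, with 95% intervals of the limma fit. Dark points are ΔNp53:WTp53 (first set) and light points tethered WTp53 (second set), filled where the adjusted p was under 0.05. HES1 is the filled gene of the first set, and its interval for tethered WTp53 spans 0.

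In the second set, tethered WTp53 against empty vector raised 7 of the 10 genes and lowered 1, where 21.6% of all genes rose and 26.2% fell (47.8% called). The median difference was 0.53, against 0 over all genes, and 7 of the 10 had groups without overlap, against 52.3%. WTp53 against the same vector arrays raised 6 and lowered 1, where 17.9% rose and 18.9% fell (36.8% called), with a median of 0.34 against −0.02 and 7 of the 10 without overlap, against 47.2%. JAG1 and HEY1 had the same deposited value in the 3 WTp53 arrays (7.9 and 7.54), as did 2.97% of all genes in that group. The median standard deviation of the 10 genes there was 0.0162.

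JAG2 stood at 10.54, 10.86 and 10.45 in tethered WTp53 arrays, at 9.97, 10.0 and 10.04 in WTp53 arrays and at 7.94, 8.0 and 7.95 in vector arrays (experiments d, e and f). The 3 groups did not overlap. It rose 6.29-fold with tethered WTp53 (2.65 ± 0.09, limma adjusted p = 2.44e-09) and 4.11-fold with WTp53 (2.04 ± 0.09, limma adjusted p = 3.90e-08). JAG1 stood at 8.22, 8.26 and 8.16 in tethered WTp53 arrays, at 7.9 in each WTp53 array and at 6.95, 7.05 and 6.93 in vector arrays. Its rises were 1.24 ± 0.05 and 0.92 ± 0.05 (limma adjusted p = 5.96e-09 and 1.12e-07) with tethered WTp53 and with WTp53. DLL1 rose by 0.76 ± 0.06 and by 0.48 ± 0.06 in the same comparisons (limma adjusted p = 8.21e-07 and 5.09e-05). DLL4 ranged from 7.37 to 7.5 in tethered WTp53 arrays, from 7.03 to 7.19 in WTp53 arrays and from 7.05 to 7.22 in vector arrays. It passed the test with tethered WTp53 (0.28 ± 0.06, limma adjusted p = 0.00331) and not with WTp53 (−0.01 ± 0.06, limma adjusted p = 0.95). The tethered WTp53 call of DLL4 was lost without experiment d as a whole.

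**Figure D3:**
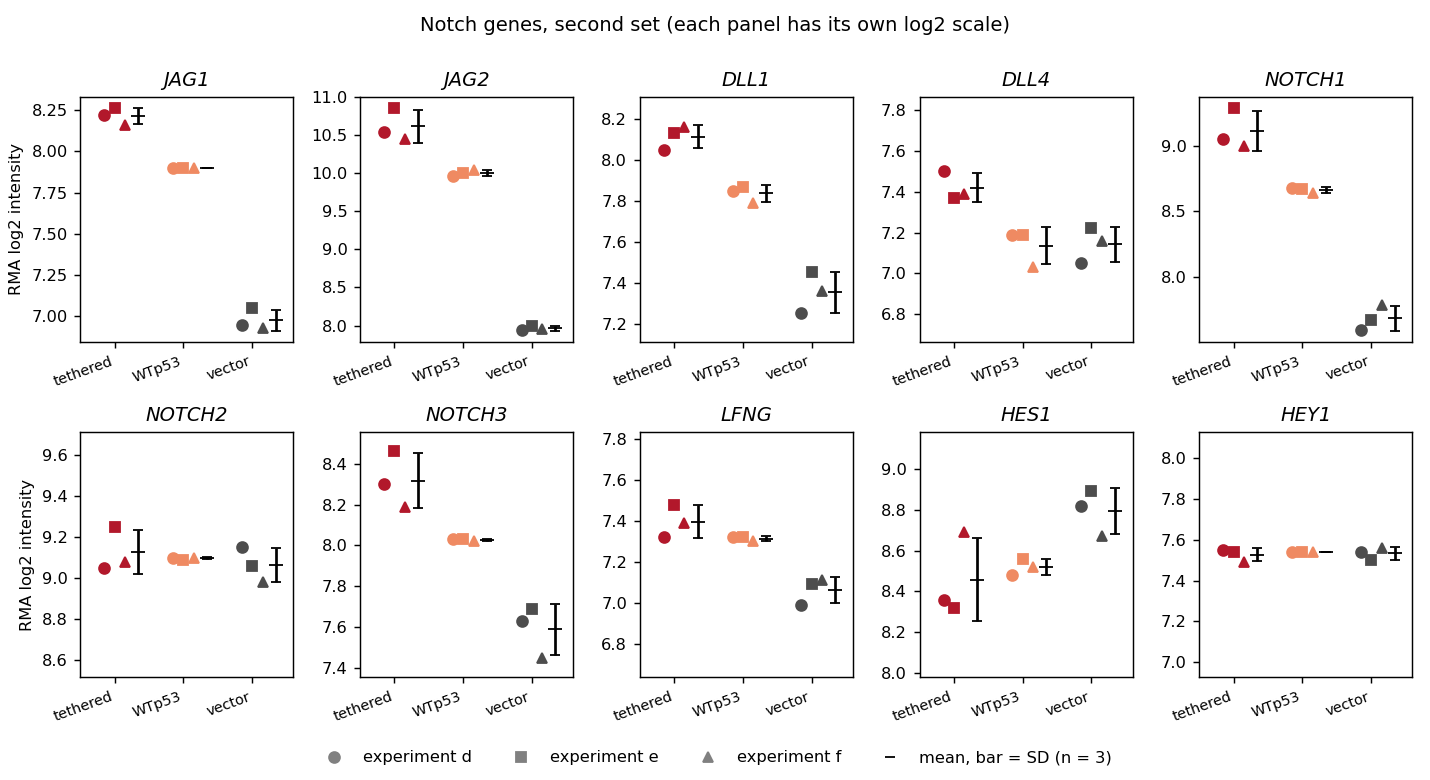
RMA log2 intensity of the 10 Notch genes in the second set, 1 panel per gene with its own scale. Symbols are arrays by experiment, from left tethered WTp53, WTp53 and empty vector, and bars are the mean with its SD (n = 3). JAG1, JAG2, DLL1, NOTCH1 and NOTCH3 fall in 3 separate groups in the order tethered, WTp53, vector. The mean of HES1 is highest in vector arrays, and its tethered array of experiment f lies within the vector range.

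NOTCH1 stood at 9.05, 9.29 and 9.0 in tethered WTp53 arrays, at 8.68, 8.67 and 8.64 in WTp53 arrays and at 7.6, 7.67 and 7.79 in vector arrays, 3 groups without overlap. It rose by 1.43 ± 0.07 with tethered WTp53 and by 0.98 ± 0.07 with WTp53 (limma adjusted p = 6.22e-08 and 2.25e-06). NOTCH3 rose by 0.73 ± 0.07 and by 0.44 ± 0.07 (limma adjusted p = 1.05e-05 and 7.88e-04), and LFNG by 0.33 ± 0.05 and by 0.25 ± 0.05 (limma adjusted p = 2.21e-04 and 0.00253). NOTCH2 differed by 0.06 ± 0.06 and by 0.03 ± 0.06 and did not pass the test.

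HES1 fell against vector with both constructs of this set. It stood at 8.36, 8.32 and 8.69 in tethered WTp53 arrays, at 8.48, 8.56 and 8.52 in WTp53 arrays and at 8.82, 8.89 and 8.67 in vector arrays. The tethered array of experiment f lay within the vector range, and the WTp53 arrays lay below all vector arrays. HES1 fell by 0.34 on the log2 scale with tethered WTp53 (limma adjusted p = 0.00985) and by 0.27 with WTp53 (limma adjusted p = 0.0367). The WTp53 call was lost without experiment d or e of the vector and without any one of the 3 WTp53 arrays (highest adjusted p 0.132). The tethered WTp53 call was lost without experiment d or without experiment e as a whole. With the spread taken from all 18 arrays, neither HES1 fall passed (adjusted p = 0.0969 and 0.248), nor did LFNG (0.139 and 0.361) nor DLL4 with tethered WTp53 (0.0611). HEY1 differed from vector by −0.01 ± 0.04 with tethered WTp53 and by 0.01 ± 0.04 with WTp53, and neither passed.

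**Figure D4:**
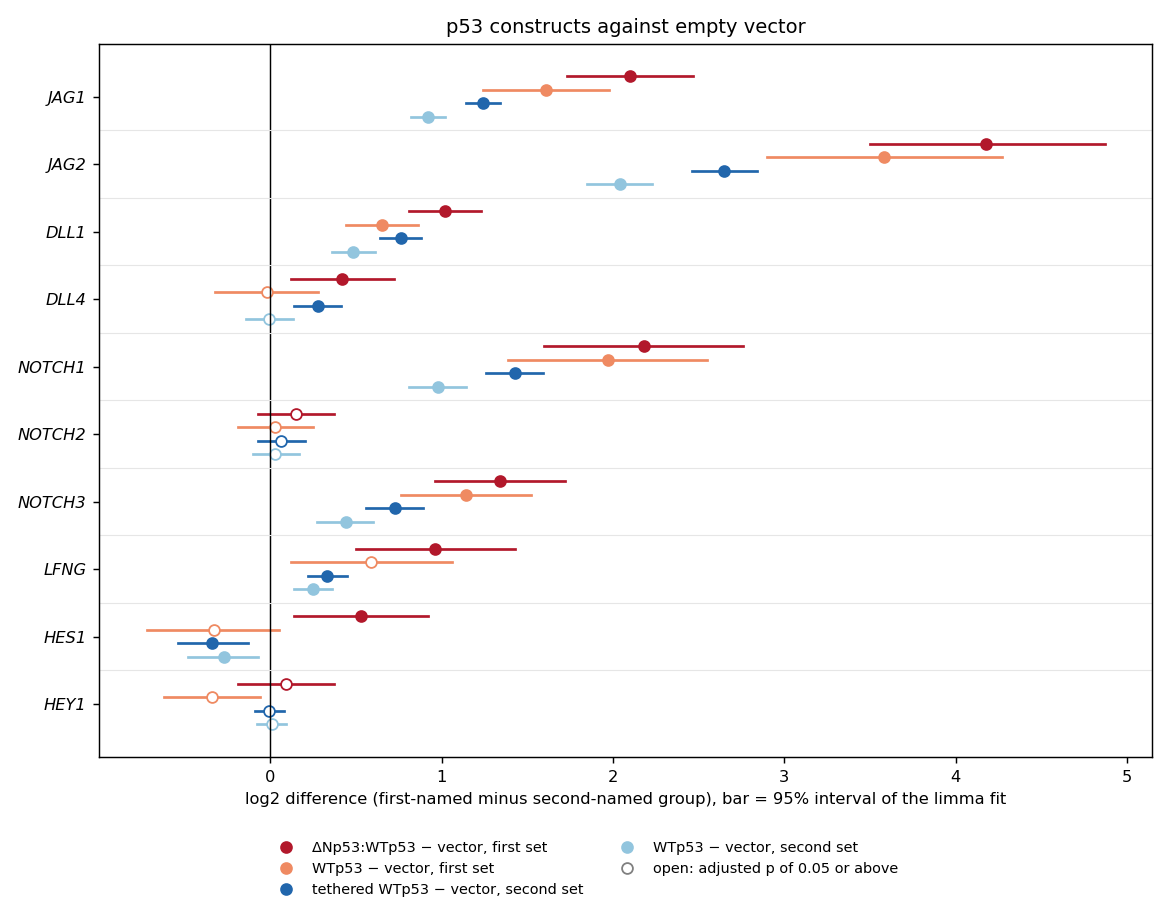
Log2 difference from the empty vector of the same set for the 10 Notch genes, with 95% intervals of the limma fit, for 4 comparisons. Filled points had an adjusted p under 0.05. JAG2 has the longest rise in each comparison, 4.18, 3.58, 2.65 and 2.04 from top to bottom, and HES1 lies right of 0 with ΔNp53:WTp53 and left of it in the other three.

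Tethered WTp53 against WTp53 raised 6 of the 10 genes and lowered 0, where 14.9% of all genes rose and 32.4% were called; the median was 0.28 against 0.02, and 6 of the 10 had groups without overlap, against 42.6%. The 6 were JAG2 (0.61 ± 0.09, limma adjusted p = 4.57e-04), NOTCH1 (0.45 ± 0.07, limma adjusted p = 0.00113), JAG1, DLL1, DLL4 and NOTCH3, the last 4 by 0.28 to 0.31. With the spread taken from all 18 arrays 1 of the 10 passed, DLL1, where 1855 of 18417 genes were called in place of 5970. NOTCH3 also missed the threshold without experiment d or without experiment e as a whole. DLL1 and DLL4 missed it without experiment f as a whole. HES1 differed by −0.06 ± 0.09 (95% interval −0.27 to 0.14), LFNG by 0.08 ± 0.05 (−0.03 to 0.20), NOTCH2 by 0.03 ± 0.06 (−0.10 to 0.16) and HEY1 by −0.01 ± 0.04 (−0.10 to 0.07).

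The difference between effects was tested across all 18 arrays. The WTp53 effect over vector was larger in the first set for 4 of the 10 genes, where 5.93% of all genes had a larger signed effect there, 6.55% a smaller one and 12.5% were called. The differences were 1.54 ± 0.35 for JAG2 (limma adjusted p = 0.0107), 0.99 ± 0.29 for NOTCH1 (limma adjusted p = 0.0375), 0.70 ± 0.20 for NOTCH3 (limma adjusted p = 0.0295) and 0.68 ± 0.18 for JAG1 (limma adjusted p = 0.0237). The effect in the second set as a ratio to the first was 0.57 for JAG2, 0.574 for JAG1, 0.496 for NOTCH1 and 0.383 for NOTCH3. The median of that ratio was 0.494 over 1304 genes with an absolute WTp53 effect of at least 1 in the first set, and CDKN1A had 0.677. The JAG1 call was lost without any one of 5 of the 12 arrays, NOTCH3 for 9 and NOTCH1 for 11, with adjusted p up to 0.0636, 0.0785 and 0.1. They were experiment 5 of WTp53 and vector in the first set, e and f of WTp53 and e of the vector in the second for JAG1. For NOTCH1 they were all but experiment 0 of WTp53 in the first set, and for NOTCH3 all but that array, vector experiment 4 and vector experiment f. The other members did not pass: the difference was 0.34 ± 0.23 for LFNG, 0.16 ± 0.11 for DLL1, −0.01 ± 0.15 for DLL4, 0.00 ± 0.12 for NOTCH2, −0.06 ± 0.21 for HES1 and −0.35 ± 0.13 for HEY1 (limma adjusted p = 0.103).

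The added effect of ΔNp53:WTp53 over WTp53 exceeded that of tethered WTp53 over WTp53 for 1 of the 10 genes, where 1.54% of all genes did so, 1.42% showed the opposite and 2.95% were called. It was HES1, at 0.92 ± 0.21 (limma adjusted p = 0.0269). The call was lost without experiment 5 of WTp53 in the first set, experiment d or e of tethered WTp53, or any WTp53 array of the second set (adjusted p up to 0.0792). For JAG2 the same difference was −0.01 ± 0.35, with a 95% interval of −0.75 to 0.72. For NOTCH1 it was −0.24 ± 0.29, and for HEY1 0.44 ± 0.13 (limma adjusted p = 0.0885). It was 0.18 ± 0.18 for JAG1, 0.09 ± 0.11 for DLL1, 0.15 ± 0.15 for DLL4, 0.09 ± 0.12 for NOTCH2, −0.09 ± 0.20 for NOTCH3 and 0.29 ± 0.23 for LFNG, and none of these 6 passed.

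Of 56 other genes of the pathway listed by role, 52 were measured, and they moved in both directions. With ΔNp53:WTp53 against vector 16 rose and 11 fell, where 15.7% of all genes rose and 20.3% fell. With WTp53 in the first set 12 rose and 10 fell, where 15.2% rose and 16.6% fell. With tethered WTp53 against vector 24 rose and 14 fell, where 21.6% rose and 26.2% fell. With WTp53 in the second set 14 rose and 9 fell, where 17.9% rose and 18.9% fell. Their median difference was 0.08 in either first-set comparison, against 0.99 and 0.62 for the 10 genes with ΔNp53:WTp53 and with WTp53. The other ligands, DLL3 and the ligand-like DLK1, DLK2, DNER and CNTN1, gave 0 rises and 1 fall with ΔNp53:WTp53, that of DLL3 (−0.37). DLL3 also fell in the other 3 comparisons with vector (−0.27 with WTp53 of the first set, −0.21 with tethered WTp53 and −0.15 with WTp53 of the second). DLK2 rose with WTp53 in the first set (0.32), DLK1, DLK2 and CNTN1 with tethered WTp53 (0.25, 0.24 and 0.18), and CNTN1 with WTp53 in the second set (0.31). NOTCH4, the remaining receptor, differed by 0.06.

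The cleavage machinery moved in both directions. Of 8 measured genes 3 rose and 1 fell with ΔNp53:WTp53 against vector (15.7% and 20.3% of all genes). With WTp53 in the first set 2 rose and 2 fell (15.2% and 16.6%). In the second set 3 rose and 3 fell with tethered WTp53 (21.6% and 26.2%), and 2 rose and 1 fell with WTp53 (17.9% and 18.9%). PSEN2 and FURIN had wide rises. PSEN2, a catalytic subunit of γ-secretase, rose against vector by 2.01 ± 0.14 with ΔNp53:WTp53 and by 2.07 ± 0.14 with WTp53, and in the second set by 1.83 ± 0.05 with tethered WTp53 and 1.08 ± 0.05 with WTp53. FURIN, the protease of the first cut, rose by 1.32 ± 0.11 with ΔNp53:WTp53 and by 0.82 with WTp53 of the first set, and was higher with ΔNp53:WTp53 than with WTp53 (0.50 ± 0.11, limma adjusted p = 0.0487). In the nuclear complex 1 of 7 measured genes rose and 4 fell with ΔNp53:WTp53 (15.7% and 20.3% of all genes), and 1 rose and 5 fell with WTp53 (15.2% and 16.6%). The one that rose was the acetyltransferase KAT2B, by 2.16 ± 0.16 and by 1.93 ± 0.16. The co-activator MAML2 fell by 0.72 and by 0.97, and the acetyltransferase EP300 by 0.73 and by 0.75, in the same order. RBPJ itself fell by 0.49 with WTp53 of the first set and was higher with ΔNp53:WTp53 than with WTp53 (0.51 ± 0.10, limma adjusted p = 0.0264). Its WTp53 effect differed between the sets (first less second −0.64 ± 0.11, limma adjusted p = 0.00309). In the second set 3 of the 7 rose and 4 fell with tethered WTp53 (21.6% and 26.2% of all genes). With WTp53 of that set 1 rose and 3 fell (17.9% and 18.9%).

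**Figure D5:**
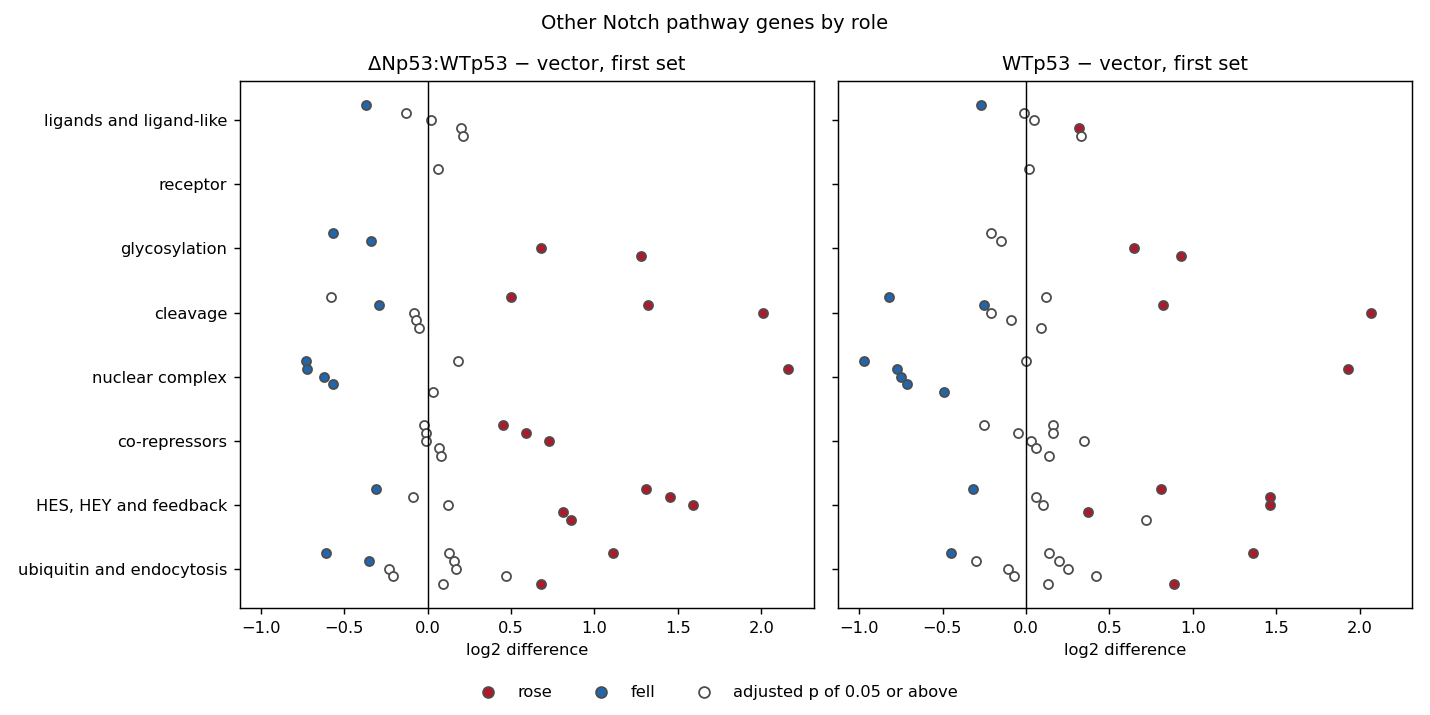
Log2 difference from vector in the first set for 52 other Notch pathway genes, 1 point per gene and 1 row per role, for ΔNp53:WTp53 (left) and WTp53 (right). Red points rose, blue points fell and open points had an adjusted p of 0.05 or above. In the nuclear complex 4 (left panel) and 5 (right panel) of 7 genes fell and KAT2B rose (2.16 and 1.93), and the HES, HEY and feedback genes mostly right.

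Among 8 further HES, HEY and feedback genes 5 rose and 1 fell with ΔNp53:WTp53 (15.7% and 20.3% of all genes), and 4 rose and 1 fell with WTp53 (15.2% and 16.6%). HEYL, a repressor related to HEY1, rose by 1.45 ± 0.17 with ΔNp53:WTp53 and by 1.46 ± 0.17 with WTp53 (limma adjusted p = 1.76e-04 and 1.84e-04), and HES6 by 1.59 and by 1.46. NRARP, a feedback inhibitor that Notch itself induces, rose by 1.31 with ΔNp53:WTp53 (limma adjusted p = 0.00512). With WTp53 its difference of 0.72 missed the threshold (limma adjusted p = 0.0802). The gene that fell was HEY2 (−0.31 with ΔNp53:WTp53 and −0.32 with WTp53, limma adjusted p = 0.0489 and 0.0433). HES4 (−0.09 and 0.10) and HES5 (0.12 and 0.06) passed with neither construct. FBXW7, the ubiquitin ligase subunit that marks the freed receptor for breakdown, rose by 0.68 with ΔNp53:WTp53 and by 1.36 with WTp53, and was lower with ΔNp53:WTp53 than with WTp53 (−0.68 ± 0.10, limma adjusted p = 0.0115). The co-repressor TLE1 was higher with ΔNp53:WTp53 than with WTp53 (0.67 ± 0.11, limma adjusted p = 0.0184). In that comparison 3 of the 52 rose and 1 fell, where 1.56% of all genes rose and 0.88% fell. In tethered WTp53 against WTp53 11 rose and 7 fell, where 14.9% rose and 17.5% fell.

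In the second set, against vector, KAT2B rose by 1.65 ± 0.05 with tethered WTp53 and by 0.84 ± 0.05 with WTp53, and HEYL by 1.2 ± 0.06 and by 0.79 ± 0.06. FURIN rose by 0.85 ± 0.04 with tethered WTp53, and MAML2 fell by 0.81 with WTp53. Tethered WTp53 exceeded WTp53 by 0.81 ± 0.05 for KAT2B, 0.75 ± 0.05 for PSEN2 and 0.41 ± 0.04 for FURIN, and POGLUT1, which adds glucose to the receptor, was lower (−0.32 ± 0.04, limma adjusted p = 3.13e-04). The WTp53 effect was larger in the first set than in the second by 1.09 ± 0.18 for KAT2B, 0.98 ± 0.16 for PSEN2 and 0.76 ± 0.13 for FBXW7, and the difference was −0.64 ± 0.11 for RBPJ. The added effect of ΔNp53:WTp53 less that of tethered WTp53 was −0.84 ± 0.13 for FBXW7, −0.80 ± 0.16 for PSEN2 and 0.67 ± 0.13 for TLE1 (limma adjusted p = 0.00344, 0.0108 and 0.0137).

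Across the 18 arrays, after the mean of each set's vector arrays was subtracted, JAG1, JAG2, DLL1, NOTCH1 and NOTCH3 correlated with each other at r between 0.9 and 0.99. HES1 correlated with those 5 at 0.13 to 0.23 and HEY1 at −0.25 to 0. The arrays fall into 6 groups and share their vector means, so these are descriptions without a test. By the same measure the genes most like JAG2 were AKTIP (r = 0.996), PIK3R1 (0.995) and IL1RAP (0.995), and those most like NOTCH1 were ARHGAP21 (0.991), NHERF1 (0.99) and SLC25A30 (0.99). Those most like HES1 were USP42 (0.883), ZBTB10 (0.879) and LINC00575 (0.859).

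Markers of other cells were set beside these results. Of 6 endothelial markers 0 passed the test in each of the 6 comparisons, and likewise 0 of 6 fibroblast markers. Across those comparisons 2.44% to 47.8% of all genes were called. Of 6 leukocyte markers 1 rose with ΔNp53:WTp53 against vector and 3 with WTp53 in the first set, where 15.7% and 15.2% of all genes rose. LAPTM5 rose in both (0.88 ± 0.09 and 0.98 ± 0.09). The summed log2 level of the 6 leukocyte markers ranged from 26.12 to 26.95 in ΔNp53:WTp53 arrays, from 27.7 to 27.97 in WTp53 arrays and from 25.51 to 26.14 in vector arrays. Of 6 lung epithelial markers 2 rose with ΔNp53:WTp53 and 1 with WTp53 (15.7% and 15.2% of all genes). Their summed level ranged from 25.97 to 28.39, from 26.9 to 27.23 and from 25.1 to 25.34 in ΔNp53:WTp53, WTp53 and vector arrays. In the second set LAPTM5 rose against vector by 0.83 ± 0.05 with tethered WTp53 and by 0.63 ± 0.05 with WTp53, CD79A rose with WTp53 (0.38 ± 0.05), and CD14 fell by 0.50 and by 0.33 with tethered WTp53 and with WTp53. The summed leukocyte level ranged from 39.78 to 40.52 in tethered WTp53 arrays, from 40.36 to 40.58 in WTp53 arrays and from 39.57 to 39.91 in vector arrays. Of the 6 lung epithelial markers 3 rose with tethered WTp53 and 0 with WTp53 (21.6% and 17.9% of all genes). Their sums ranged from 40.27 to 40.52, from 39.59 to 39.94 and from 39.4 to 39.83 in tethered WTp53, WTp53 and vector arrays. Whether a marker is absent could not be judged without a signal over background, and the part of these markers in the Notch results was not tested.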

How the data were processed

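RNA was hybridized to 18 Affymetrix Gene arrays, in 6 groups of 3 taken from the sample titles. The deposited values are log2 intensities that the authors summarized with RMA in Affymetrix Expression Console, per the submitters' processing notes; versions and the genome build are not given in the sources used here. Of 33297 probe sets 19460 carry 1 gene symbol, 1754 several and 12083 none here; the single-symbol probe set with the highest mean over all arrays stood for a gene, which left 18417 genes. Signal over background was not derived, and precision is limited by how few arrays a group has.

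Each set had its own fit in limma 3.58.1 under R 4.3.3 (9 arrays, 3 group means, 6 residual degrees of freedom), because the sets were processed apart and differ in spread; differences between effects used all 18 arrays (12 residual degrees of freedom). Tests were two-sided with Benjamini-Hochberg adjustment over all genes. The smallest two-sided p that an exact permutation of 3 against 3 arrays allows is 0.1, above the threshold of 0.05. Same-experiment arrays of the first set deviated together (9 of 9 correlations of deviations above 0.1, from 0.11 to 0.57), and the labels call the experiments independent transfections, so blocked values are given where they change a call; in the second set 2 of 9 were above 0.1. The fit was tested on simulated data with independent normal noise in each array, so that test does not cover deviations shared by arrays of an experiment.

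The 10 genes, the other lists and the naming rule were chosen with earlier results of these data known. All 10 are described in every comparison. Of the other pathway genes, up to 4 with the smallest p per comparison follow the rule. DLL3, NOTCH4, EP300, CNTN1, DLK1, DLK2, HES4, HES5, HES6, HEY2 and NRARP were named after their values were seen. The probe set of the transfected gene is not reported here. Alternatives were another spread, the block, other normalizations, a filter on dim genes, the mean of probe sets, and leaving out arrays or experiments.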

Additional observations from a re-analysis of the deposited data

Results flagged for a closer look

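In 5 results the effect of a p53 construct differed between the sets by the test of the difference itself. The WTp53 effect over vector was larger in the first set than in the second by 1.54 for JAG2, 0.99 for NOTCH1, 0.70 for NOTCH3 and 0.68 for JAG1 on the log2 scale (limma adjusted p = 0.0107, 0.0375, 0.0295 and 0.0237), in a comparison that both sets hold under the same titles. The p53 targets CDKN1A and MDM2 differed the same way, by 1.49 and 1.30. The added effect over WTp53 was larger for ΔNp53:WTp53 than for tethered WTp53 by 0.92 for HES1 (limma adjusted p = 0.0269). The sets also differ in normalization and in spread, and the part of either in these differences was not tested.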

How the results depend on the processing

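The 10 Notch genes were recomputed under every alternative, which gave 1300 values over 80 gene and comparison pairs. Of these 1197 stayed on their side of the threshold (those that missed it include changes of sign), 79 lost a call, 24 gained one and 0 called values changed sign. JAG1, JAG2, DLL1, NOTCH1 and NOTCH3 kept their rise over vector in all 16 alternatives of each of the 4 comparisons with vector.

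Counts over all genes also moved. For ΔNp53:WTp53 against WTp53, 449 genes became 2693 with a spread from all 18 arrays, 96 with the 6 arrays alone and 806 with the replicate block. With a spread from all 18 arrays 3603 genes were called in place of 6769 for WTp53 against vector in the second set, and 1855 in place of 5970 for tethered WTp53 against WTp53. The series does not state whether d, e and f of the second set were separate transfections. There the replicate block gave 8805, 6791 and 5973 calls in place of 8795, 6769 and 5970. The block also ended the HES1 call of WTp53 against vector (adjusted p = 0.0559). Beyond the blocked values beside HEY1 and LFNG, it changed no other pairwise call of the 10 genes.

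Leaving out single arrays or whole experiments gave 1871 to 8101 calls for ΔNp53:WTp53 against vector, 2111 to 7029 for WTp53 against vector in the first set, and 0 to 2461 for ΔNp53:WTp53 against WTp53. The 0 came from limma without experiment 5, where 1772 genes had an unadjusted p under 0.05 against 921 expected at that level. The lowest counts against vector came without experiment 4, and the highest of all 3 without experiment 0. In the second set the ranges were 7058 to 8570 for tethered WTp53 against vector, 5095 to 6240 for WTp53 against vector and 3236 to 5789 for tethered WTp53 against WTp53. The differences between effects ranged from 1272 to 3185 calls for WTp53 (2300 with all arrays) and from 200 to 1318 for the added construct (544 with all arrays). The causes were not tested beyond the smaller number of arrays.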
